A study of Mus musculus with 3 samples.

Results

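The genes described here are 43 activity-regulated genes of neurons outside the Fos and Jun families, taken as a list of symbols. The rule used no measured value, but the list was chosen with earlier results of these data known. A gene probe was a member where its accession mapped to one of the RefSeq symbols. Of the 43 genes, 41 had at least 1 probe, out of 15724 named genes with a probe on the arrays. The genes Dusp5 and Vgf had none. The members carried 56 probes, and 49 of them, for 37 genes, were flagged reliable on at least 2 of 3 arrays and were tested. Nr4a3, Creb1, Sik1 and Pim1 had only probes that missed this filter.

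Each of 3 two-colour Agilent arrays of 60-mer probes set cortical RNA of 16-week-old Gtf2i(+/Δex2) mice, the mutant, against cortical RNA of wild-type mice of that age. The mutant animals carried 1 Gtf2i allele labelled as a deletion of exon 2. The genetic background of both genotypes was 98.4% C57BL/6J with 1.6% 129Sv/CD1, and each hybridised RNA was pooled from 3 to 5 mice of one genotype. On replicate 2 the dyes were exchanged, with Cy5 on the mutant RNA and Cy3 on the wild type. No label tells if each array had pools of its own, so the p-values cover the spread among arrays alone, which may be technical. Values are intensities, which compare only within a probe, and log2 ratios of mutant over wild type. That direction is likely rather than stated: titles name the mutant before the wild type, and the readme defines its fold as test over control.

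Activity-regulated genes are switched on within minutes to hours when calcium and growth factor signals reach the nucleus of a neuron. The first wave needs no new protein and holds many transcription factors, such as the EGR and NGFI-B families, which act on a later wave of effectors at synapses. Other early products, among them phosphatases of MAP kinases, feed back on the signals that induced them. Gtf2i encodes TFII-I, a transcription factor itself phosphorylated in response to growth factors.

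With the likely direction, Gtf2i was lower in the mutant. Its probe A_52_P442585 read 304, 327 and 312 in mutant cortex, against 418, 444 and 447 in wild-type cortex on replicates 1, 2 and 3. That gave -0.47 ± 0.04 (SD, n = 3 arrays; limma adjusted p = 0.0026), or 72% of wild type. The other probe, A_51_P499905, read -0.32 ± 0.05 and lost its call without replicate 1 (limma adjusted p = 0.0559, the highest of its alternatives, the lowest being 8.67e-05). The position of these probes against exon 2 was not analysed here. A probe lying outside the deletion would show the level of the transcript and not the deletion itself.

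Replicate 1 correlated with replicate 2 at 0.82 and with replicate 3 at 0.78 over the 27530 tested probes, and replicates 2 and 3 at 0.62. Probes of 6 thalamus marker genes averaged 0.66 on replicate 3, against -0.05 on each of the other arrays, and those of endothelial cells and pericytes averaged 0.21 on replicate 3, against -0.05 on replicate 1 and -0.08 on replicate 2. Averages on replicates 1, 2 and 3 were -0.22, -0.31 and 0.14 for striatum markers and -0.49, -0.53 and -0.07 for blood markers. Interneuron markers averaged -0.24, -0.08 and 0.08, microglia markers -0.13, -0.14 and -0.13, and astrocyte markers -0.21, -0.21 and -0.12. Oligodendrocyte markers averaged -0.11, -0.19 and -0.06, and hippocampus markers 0.03, -0.001 and 0.02. All 6 markers of cortical excitatory neurons were measured, and 4 were lower in the mutant and 0 higher, with mean log2 ratios of -0.27, -0.26 and -0.33 on the 3 arrays. Their summed intensities were 19765 to 32588 in mutant cortex and 25765 to 42679 in wild-type cortex. Summed thalamus marker intensities were 9707 to 12342 in mutant cortex and 4811 to 11084 in wild-type cortex, the lowest being wild type on replicate 3, and 1 of the 6 genes was higher and 0 lower. Of 9 measured endothelial and pericyte markers 2 were higher and 1 lower, of 7 microglia markers 1 and 6, of 7 astrocyte markers 2 and 4, and of 7 oligodendrocyte markers 2 and 3. Of 6 interneuron markers 0 were higher and 2 lower, of 6 striatum markers 0 and 2, of 4 hippocampus markers 1 and 0, and of 3 blood markers 0 and 3. The part of these differences in the results was not tested, and in such bulk RNA fewer cells of a type and less RNA per cell cannot be told apart.

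Activity-regulated genes moved in both directions in the mutant cortex. By the probe with the smallest p, 11 of the 37 measured members were higher in the mutant and 11 lower at a limma adjusted p under 0.05. That is 59.5% of the measured members; over all 12721 measured genes the share was 40.7%, 17.1% higher and 23.6% lower. Counted by probes, 11 were higher and 12 lower, 46.9% of 49, against 33.9% of all tested probes (15.0% higher, 18.9% lower). Changes were mostly small: 2 member probes passed with at least a 1.5-fold change, one for Klf2, which was lower, and one for Plk2, which was higher, where the background was 2.01%. The median log2 ratio of the member probes was 0.06 and that of all tested probes -0.0016. The median absolute ratio was 0.18 for members and 0.11 for all tested probes.

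Member probes were also brighter than most, with a median intensity of 596 against 360 for all tested probes, and bright probes were called more often. Tested probes were ranked by brightness into 4 bins of near-equal size. In the dimmest bin 2 of 6 member probes were called, where the background was 14.1%. In the next bin the count was 3 of 11, with a background of 30.4%. The third held 7 of 11 (background 40.8%), and the brightest 11 of 21 (background 50.3%). One sign on all 3 arrays was seen for 44 of 49 member probes and for 65.1% of all tested probes. Arrays spanned over 0.5 log2 for 0 of 49 member probes and for 3.02% of all tested probes. Intensities of the genotypes did not overlap for 25 member probes, 11 with the mutant above and 14 with it below, where the background was 32.2% (13.0% above, 19.3% below).

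Among the alternative fits at the same threshold, the count of calls was smallest in the 2-array fit without replicate 1. There the ratios of the 23 called probes kept their direction and differed from those of all 3 arrays by at most 1.44 times. In that fit 2 member genes were higher and 4 lower, the 6 being Gadd45b and Plk2, and Egr1, Ier2, Klf2 and Nptx1. Without replicate 2 the counts were 8 higher and 10 lower, and without replicate 3 they were 12 and 12. Gadd45b counted as lower without replicate 2, where its lower probe had the smaller limma adjusted p (0.022, against 0.0277 for the higher probe). The shares over all measured genes in these 2-array fits are not given here, so these counts have no background beside them.

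**Figure D1:**
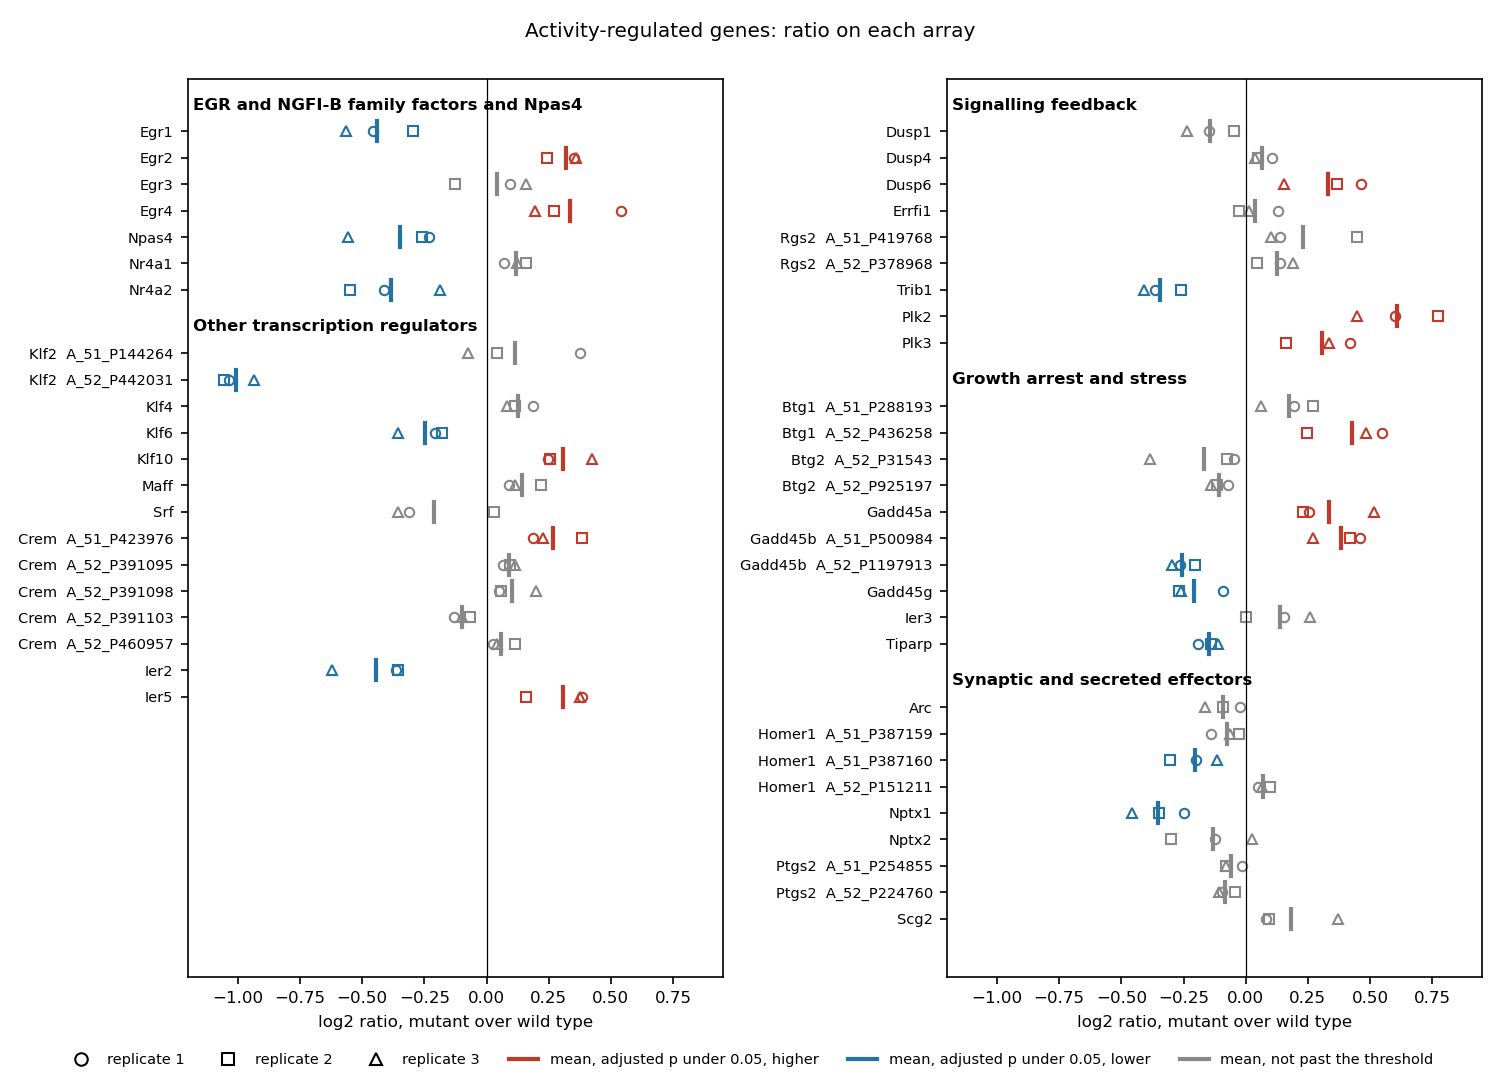
Log2 ratio of mutant over wild type (horizontal axis) of each tested member probe, grouped by role. Symbols are the 3 arrays and vertical bars their means, coloured where the limma adjusted p was under 0.05. Klf2 probe A_52_P442031 lies farthest to the left, at -1.01, and Plk2 farthest to the right, at 0.61.

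The stretches of 250 bases before the RefSeq start are shown for the 4 members with the 2 highest and the 2 lowest ratios among called members with a single window and probes called one way. They are read 5′ to 3′ on the strand of the gene on GRCm38.p6. Plk2 is at chr13:110394794-110395043 (plus strand), Btg1 at chr10:96616751-96617000 (plus), Klf2 at chr8:72318812-72319061 (plus) and Nr4a2 at chr2:57124004-57124253 (minus). Capitals mark the cyclic AMP response element TGACGTCA, bound by CREB family factors, or its 5-base core TGACG, on either strand (CGTCA where it lies on the other strand).
Plk2: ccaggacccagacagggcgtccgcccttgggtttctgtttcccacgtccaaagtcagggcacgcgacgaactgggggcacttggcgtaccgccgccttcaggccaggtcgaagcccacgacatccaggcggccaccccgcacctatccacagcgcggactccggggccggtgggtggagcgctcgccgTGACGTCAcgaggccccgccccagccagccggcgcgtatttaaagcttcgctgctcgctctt
Btg1: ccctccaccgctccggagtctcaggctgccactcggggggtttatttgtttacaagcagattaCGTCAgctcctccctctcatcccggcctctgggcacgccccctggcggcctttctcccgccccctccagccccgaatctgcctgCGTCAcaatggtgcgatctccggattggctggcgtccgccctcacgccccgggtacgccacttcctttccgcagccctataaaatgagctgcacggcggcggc
Klf2: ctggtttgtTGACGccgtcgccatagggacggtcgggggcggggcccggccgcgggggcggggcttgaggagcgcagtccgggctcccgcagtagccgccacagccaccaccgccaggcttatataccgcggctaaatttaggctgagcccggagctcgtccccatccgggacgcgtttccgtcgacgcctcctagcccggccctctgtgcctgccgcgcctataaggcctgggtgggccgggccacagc
Nr4a2: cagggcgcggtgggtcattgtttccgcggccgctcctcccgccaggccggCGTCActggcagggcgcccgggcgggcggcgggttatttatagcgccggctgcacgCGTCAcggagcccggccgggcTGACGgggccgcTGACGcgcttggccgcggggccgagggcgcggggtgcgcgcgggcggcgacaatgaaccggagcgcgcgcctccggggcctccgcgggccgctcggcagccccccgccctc
The Plk2 window held 1 full element, with 54 bases between its end and the start of the gene. Btg1 held 2 of the 5-base cores, Klf2 held 1 and Nr4a2 held 4, and none of these 3 windows held the full element.

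Of the 43 members, 31 had at least 1 such window, and 6 of them (19.4%) held the full element in one: Btg2, Dusp1, Errfi1, Maff, Plk2 and Scg2. Over 27025 genes with a window the share was 1.77%. Among these 6, Plk2 was called higher and the other 5 were not called. The 5-base core, which every full element contains on both strands, was in the windows of 20 members (64.5%), against 19.8% of all genes. It was found for 5 of 9 members called higher, 4 of 7 called lower and 9 of 11 measured members not called. The CArG box, the binding element of serum response factor, was in windows of Dusp5, Egr2 and Srf, 9.68% of members, against 1.62% of all genes. The EGR site GCGTGGGCG was in the window of Maff alone among members (3.23%), against 0.622% of all genes. These are matches of letters on both strands, not shown binding sites.

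Among the EGR and NGFI-B families and Npas4, 2 of 7 measured genes were higher in the mutant, Egr2 and Egr4, and 3 were lower, Egr1, Npas4 and Nr4a2. Called genes were 71.4% of this small group, against 40.7% of all measured genes (17.1% higher, 23.6% lower). Egr1, a zinc finger factor widely used as a marker of neuronal activity, had intensities of 6257, 7634 and 8131 in mutant cortex on replicates 1, 2 and 3, against 8593, 9374 and 12027 in wild-type cortex. Every mutant value lay below every wild-type value, and the log2 ratios were -0.46, -0.30 and -0.56 (mean -0.44 ± 0.14, SD, n = 3; limma adjusted p = 0.0061). Its relative Egr2, which also directs Schwann cell myelination, went the other way. It read 1213, 1289 and 1240 in mutant cortex, against 951, 1090 and 966 in wild-type cortex. The groups did not overlap, and the ratio was 0.32 ± 0.07 (SD, n = 3; limma adjusted p = 0.00601). Egr4, a further factor of the family, read 9793, 10778 and 8843 in mutant cortex and 6731, 8928 and 7722 in wild-type cortex. It was higher in the mutant on each array (0.34 ± 0.18, SD, n = 3; limma adjusted p = 0.0222), although the lowest mutant value lay under the highest wild-type value. Egr3 was dim in both genotypes and read 0.04, with an adjusted p of 0.639 by limma.

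Npas4, a factor induced by calcium entry that shapes inhibitory synapses, was near the floor of the arrays. Its probe had 140, 136 and 153 in mutant cortex, against 164, 163 and 225 in wild-type cortex, and was reliable on 2 arrays. No mutant value reached the lowest wild-type value, and the ratio was -0.35 ± 0.18 (SD, n = 3; limma adjusted p = 0.0198). With the level of the negative control spots subtracted it became -0.68. Nr4a2, an orphan nuclear receptor of the NGFI-B family needed by midbrain dopamine neurons, read 1109, 1168 and 1563 in mutant cortex and 1474, 1709 and 1782 in wild-type cortex. It was lower in the mutant on each array (-0.38 ± 0.18, SD, n = 3; limma adjusted p = 0.0153), with an overlap between the genotypes from replicate 3. Its relative Nr4a1 read 0.12 (limma adjusted p = 0.0695), and the probe of Nr4a3 was not tested, with 112 to 131 in both genotypes.

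Egr1 passed the threshold under all 14 alternative fits. Without replicate 1 the calls of Egr2, Egr4, Npas4 and Nr4a2 were lost, with limma adjusted p of 0.0603, 0.0941, 0.0559 and 0.0831. These were the highest values over their alternatives, and the lowest of these 4 genes lay between 9.05e-05 and 0.00208. Egr4 also missed without replicate 2 (0.0614), with replicates 1 and 2 averaged (0.0509) and with dye as a covariate (0.0515), and Nr4a2 with replicates 1 and 2 averaged (0.0615).

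**Figure D2:**
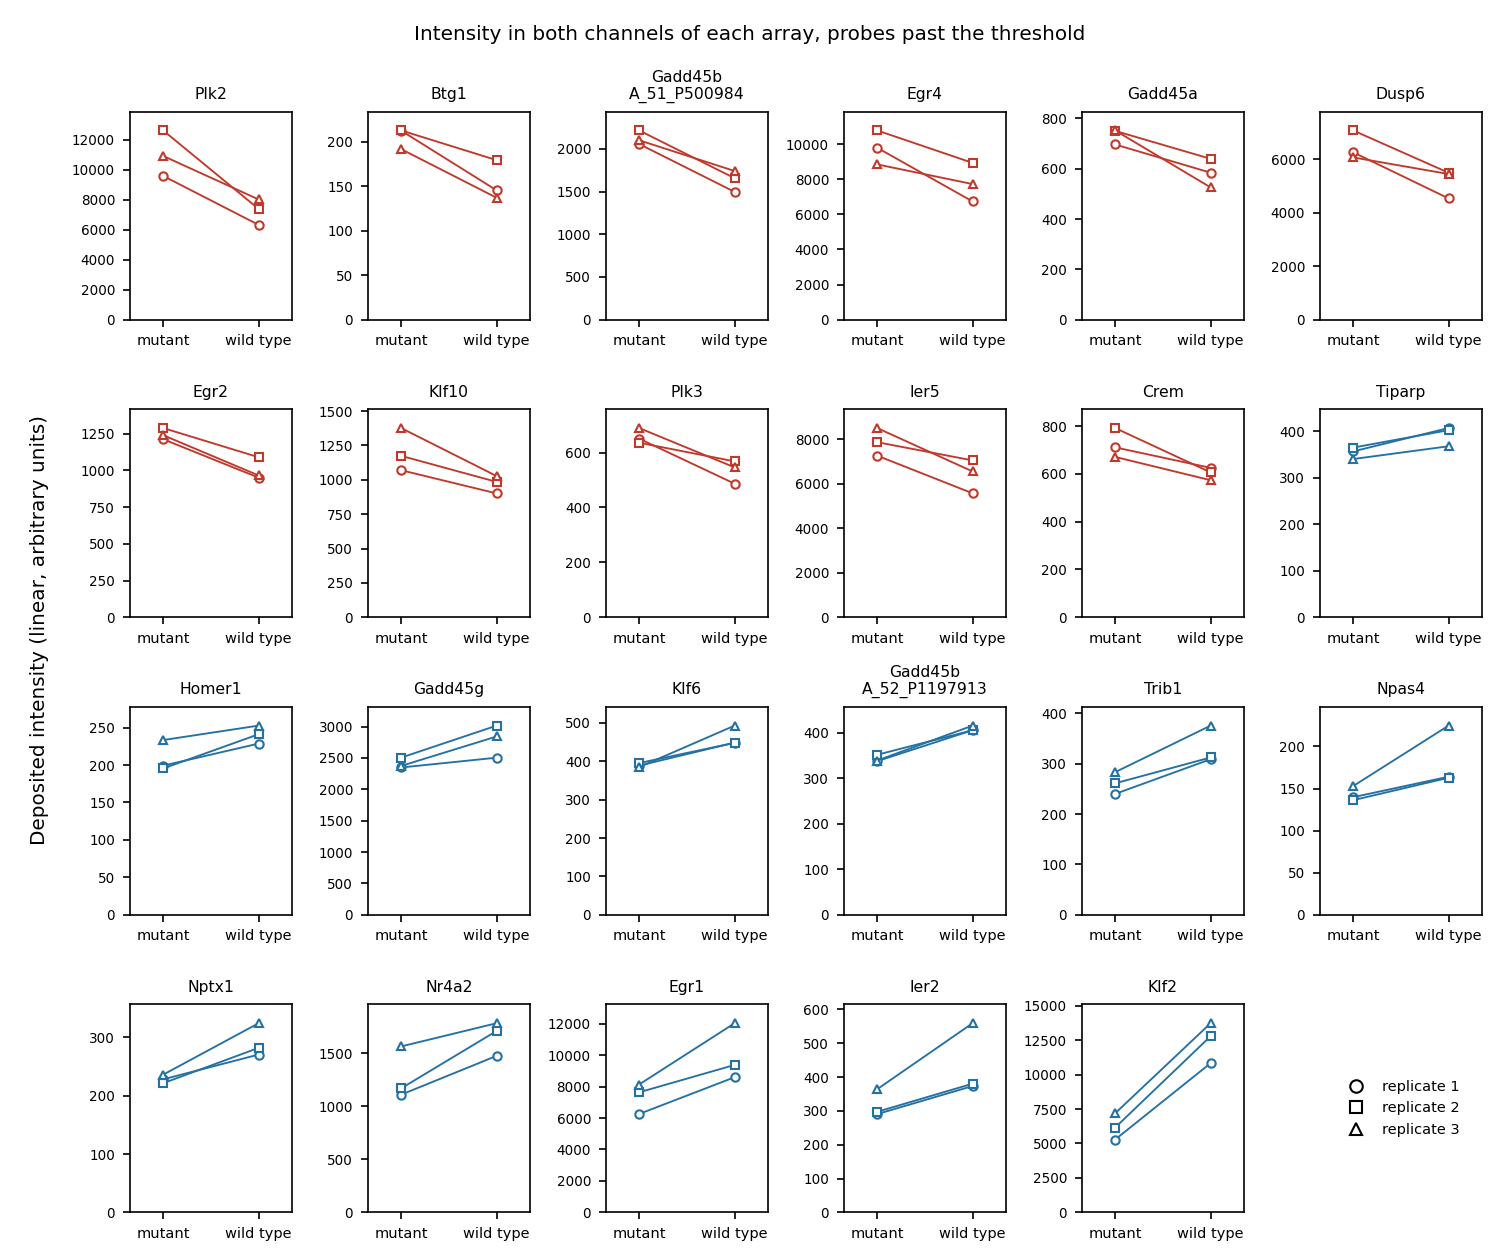
Deposited intensity (vertical axes, linear, each from 0) of the 23 member probes past the threshold, with mutant on the left and wild type on the right; each line joins the 2 channels of 1 array. Klf2 had means of 6207 in mutant and 12443 in wild-type cortex, and Plk2 had means of 11030 in mutant and 7234 in wild-type cortex.

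Of the other transcription regulators, 9 of 10 were measured, and 3 were higher in the mutant (Klf10, Crem and Ier5) and 3 lower (Klf2, Klf6 and Ier2). The share called was 66.7%, against 40.7% of all measured genes (17.1% higher, 23.6% lower). The Krüppel-like factor gene Klf2, best known from endothelial cells and T lymphocytes, had the lowest ratio of any member probe. Probe A_52_P442031 read 5283, 6151 and 7187 in mutant cortex, against 10824, 12780 and 13723 in wild-type cortex. The groups were far apart, and mutant signal was 49.7% of wild type (-1.01 ± 0.07, SD, n = 3; limma adjusted p = 0.00178). The second Klf2 probe, A_51_P144264, did not follow. It read 1238, 1259 and 1142 in mutant cortex, against 954, 1222 and 1201 in wild-type cortex, a ratio of 0.12 (limma adjusted p = 0.361). Among 3445 tested probes with a mean log2 intensity above 11, 57 read -0.90 or lower, this one among them, and 2 read 0.90 or higher. Of the named genes among those 57 probes, 13 had other tested probes, and these 15 probes had a median of 0.02 and read no lower than -0.32. These limits were chosen after the values were seen, and whether each probe's signal comes from Klf2 transcripts was not tested. Other probes of genes picked by a low probe tend to read nearer 0 through that choice. The 15 probes include the second Klf2 probe. The difference between the 2 probes, 1.12 log2, was the widest among members with several tested probes.

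Klf6, a relative linked to axon growth, read 389, 396 and 385 in mutant cortex and 449, 448 and 493 in wild-type cortex, without overlap (-0.25 ± 0.10, SD, n = 3; limma adjusted p = 0.0168). Klf10, a repressor induced by TGF-beta, read 1070, 1175 and 1377 in mutant cortex and 901, 985 and 1027 in wild-type cortex. It was higher by 0.31 ± 0.10 (SD, n = 3; limma adjusted p = 0.00969). Klf4, a regulator of stem cell identity and axon growth, read 0.13 and did not pass (limma adjusted p = 0.0615).

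Ier2, an immediate early nuclear protein, was lower in the mutant at probe A_51_P481325, which read 291, 297 and 364, against 373, 380 and 559 in wild-type cortex. The ranges did not overlap, and the ratio was -0.45 ± 0.15 (SD, n = 3; limma adjusted p = 0.00704). With the negative control level subtracted Ier2 read -0.57 at this probe. Its dim second probe, reliable on 1 array and not tested, read -0.51. Ier5, which is known to act on heat shock factor 1, read 7261, 7865 and 8502 in mutant cortex and 5568, 7047 and 6550 in wild-type cortex. All mutant values were higher (0.31 ± 0.13, SD, n = 3; limma adjusted p = 0.0145).

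Crem encodes activators and, from an internal promoter, the inducible repressor ICER. Of its 5 tested probes, A_51_P423976 passed, with 711, 792 and 671 in mutant cortex, against 626, 607 and 574 in wild-type cortex (0.27 ± 0.11, SD, n = 3; limma adjusted p = 0.0159). The other 4 read -0.10 to 0.10 and did not pass. The Crem transcripts that each probe detects were not analysed here. Both probes of Creb1, the CREB factor itself, were unreliable on every array and stayed between 108 and 114 in both genotypes. Maff, a small Maf protein, read 0.14 (limma adjusted p = 0.0562), and Srf, the serum response factor, read -0.21 with replicate 2 slightly above 0 (limma adjusted p = 0.105).

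In this group the Klf2 probe A_52_P442031 and the Ier2 probe passed under all 14 alternative fits. Without replicate 1 the calls of Klf6, Klf10, Crem and Ier5 were lost (limma adjusted p = 0.0884, 0.0545, 0.065 and 0.102, the highest over their alternatives, the lowest for this group being between 9.56e-06 and 0.00135).

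**Figure D3:**
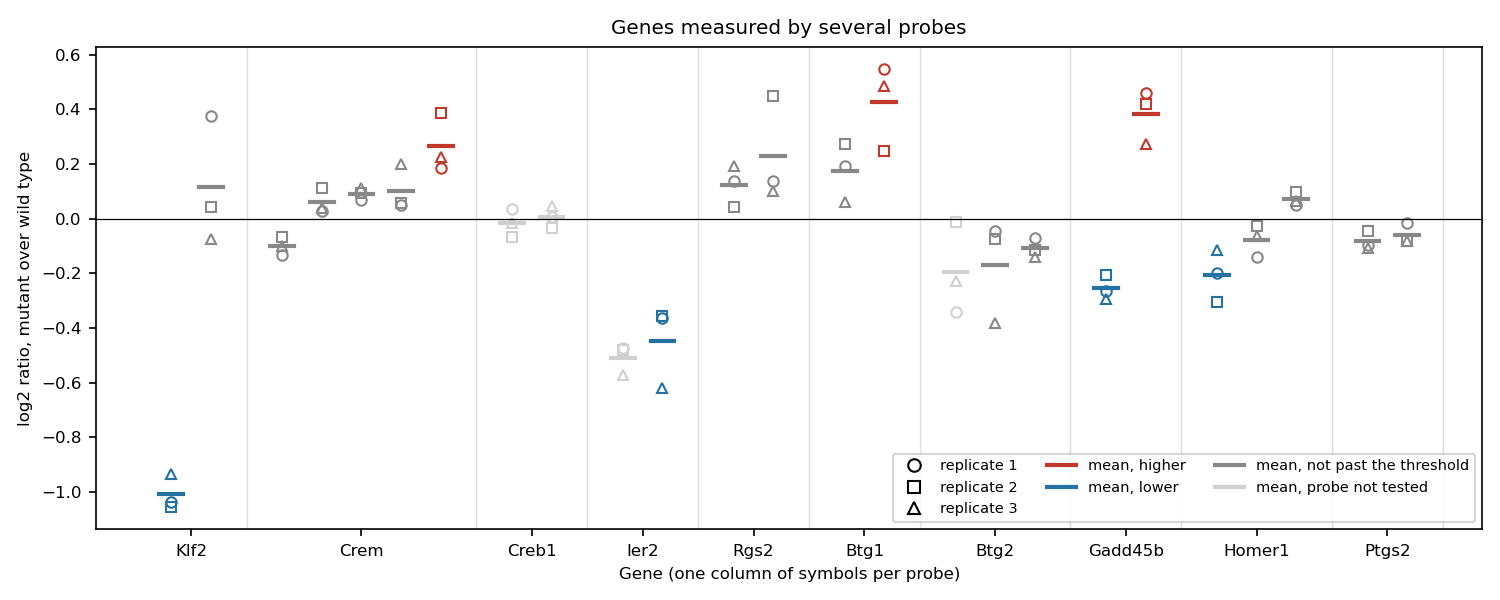
Log2 ratio of mutant over wild type (vertical axis) of each probe of the members with several probes, including pale probes that were not tested; symbols are the 3 arrays and bars the means. The 2 Klf2 probes lie 1.12 apart, the Gadd45b probes are called on opposite sides of 0, and both Btg1 probes lie above 0.

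Genes that feed back on signalling had 8 of 11 measured members, of which 3 were higher in the mutant (Plk2, Plk3 and Dusp6) and 1 lower (Trib1). Plk2, a polo-like kinase that weakens synapses after long activity and phosphorylates alpha-synuclein, had the highest ratio of the member probes. Its probe read 9575, 12606 and 10908 in mutant cortex, against 6315, 7378 and 8007 in wild-type cortex. Every mutant value was above every wild-type value, and mutant signal was 152% of wild type (0.61 ± 0.16, SD, n = 3; limma adjusted p = 0.00415). Its promoter window is the one of the 4 shown that holds the full cyclic AMP response element. The related kinase gene Plk3 read 651, 636 and 690 in mutant cortex and 487, 568 and 546 in wild-type cortex, again without overlap (0.31 ± 0.13, SD, n = 3; limma adjusted p = 0.0151).

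Dusp6, a cytoplasmic phosphatase of ERK, read 6261, 7078 and 6068 in mutant cortex and 4534, 5494 and 5447 in wild-type cortex. It was higher by 0.33 ± 0.16 (SD, n = 3; limma adjusted p = 0.0176). The nuclear phosphatase genes of the same family did not pass: Dusp1 read -0.14 (limma adjusted p = 0.0736) and Dusp4 0.07 (0.238). Trib1, a pseudokinase that directs proteins to degradation, read 240, 261 and 283 in mutant cortex, against 309, 312 and 375 in wild-type cortex. It was lower without overlap (-0.34 ± 0.08, SD, n = 3; limma adjusted p = 0.00564), and read -0.48 with the negative control level subtracted. Both probes of Rgs2, which limits G protein signalling, were on the higher side at 0.23 and 0.12 but did not pass (limma adjusted p = 0.0697 and 0.0849), and Errfi1, an inhibitor of EGF receptors, read 0.04.

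Plk2 passed under all 14 alternative fits. The calls of Plk3, Dusp6 and Trib1 were lost without replicate 1 (limma adjusted p = 0.103, 0.105 and 0.0535, the highest over their alternatives, the lowest for this group being between 5.43e-05 and 0.000239), and Dusp6 also without replicate 2 (0.0724) and with replicates 1 and 2 averaged (0.0725).

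Sik1, a salt-inducible kinase that restrains the CREB coactivators, stood apart on 1 array. Its single probe read 135, 132 and 12499 in mutant cortex, against 147, 133 and 5926 in wild-type cortex. Signal was thus at the floor in both genotypes on replicates 1 and 2 and bright in both on replicate 3, where the ratio was 1.08. The probe was reliable on that array alone and was not tested. Of 41174 gene probes, 1 on replicate 3, Sik1 itself, and 1 on replicate 2 had a signal more than 4 log2 above both other arrays, and 0 did on replicate 1. Whether the spot or the hybridised RNA differed was not tested. Pim1, a survival kinase, read 114 to 139 in both genotypes and was not tested.

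Growth arrest and stress genes were all measured, and 3 were higher in the mutant (Btg1, Gadd45a and Gadd45b) and 2 lower (Gadd45g and Tiparp). Called genes were 71.4% of this small group, against 40.7% of all measured genes (17.1% higher, 23.6% lower). Btg1 encodes an antiproliferative protein that promotes deadenylation of messenger RNA. Its dim probe A_52_P436258 read 212, 213 and 192 in mutant cortex, against 145, 179 and 137 in wild-type cortex, without overlap (0.43 ± 0.16, SD, n = 3; limma adjusted p = 0.00867). After subtraction of the negative control level the ratio was 0.75. The brighter probe, at a mean of 1925 in mutant and 1696 in wild-type cortex, read 0.18 and just missed the threshold (limma adjusted p = 0.0515). Its relative Btg2 read -0.17 and -0.11 at 2 tested probes, neither of which passed.

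The 3 Gadd45 genes, whose products act in stress signalling and DNA demethylation, did not move together. Gadd45a read 697, 751 and 752 in mutant cortex and 584, 640 and 526 in wild-type cortex, a higher level without overlap (0.33 ± 0.16, SD, n = 3; limma adjusted p = 0.0171). Gadd45g read 2348, 2504 and 2372 in mutant cortex and 2504, 3015 and 2842 in wild-type cortex. It was lower on each array, by a small amount and with touching ranges (-0.21 ± 0.10, SD, n = 3; limma adjusted p = 0.0295).

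Gadd45b was the single member with probes called in opposite directions. Probe A_51_P500984 read 2056, 2215 and 2100 in mutant cortex, against 1496, 1656 and 1740 in wild-type cortex (0.38 ± 0.10, SD, n = 3; limma adjusted p = 0.00562). The dimmer A_52_P1197913 read 338, 352 and 339 in mutant cortex, against 406, 406 and 416 in wild-type cortex (-0.26 ± 0.05, SD, n = 3; limma adjusted p = 0.00835). Neither probe overlapped between the genotypes, so the gene's count as higher rests on which probe had the smaller p. Of the 8 members with several tested probes, 3 had probes over 0.3 log2 apart (Klf2, Crem and Gadd45b), where the background was 26.5% of 3270 genes. Opposite calls were made for 6.06% of those genes.

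Tiparp, a mono-ADP-ribosyltransferase induced through the aryl hydrocarbon receptor, read 357, 365 and 340 in mutant cortex and 407, 403 and 368 in wild-type cortex. It was lower by a small margin without overlap (-0.15 ± 0.04, SD, n = 3; limma adjusted p = 0.0363). Ier3, which is linked to apoptosis and ERK signalling, read 0.14 and did not pass (limma adjusted p = 0.126).

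Of the 6 calls among these probes, the higher one of Gadd45b held under all 14 alternative fits. Without replicate 1 the others were lost, with limma adjusted p of 0.0568 for Btg1, 0.0637 for Gadd45a, 0.0828 for the lower Gadd45b probe, 0.0691 for Gadd45g and 0.278 for Tiparp. Over all alternatives the lowest values in this group lay between 8.5e-05 and 0.018, and the highest between 0.0497 and 0.278. Gadd45g and Tiparp were also lost without replicate 2 (0.0974 and 0.0787), and again when replicates 1 and 2 counted as 1 array (0.052 and 0.12). Gadd45g missed with the negative control level subtracted (0.0515) and read -0.11 under array weights, and Tiparp missed with dye as a covariate (0.0535) and with no filter on dim probes (0.0566).

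Synaptic and secreted effectors had 6 of 7 members measured, of which 0 were higher in the mutant and 2 lower, Nptx1 and Homer1. Called genes made up 33.3% of this small group, against 40.7% of all measured genes (17.1% higher, 23.6% lower). Among the higher-reading members 1, Scg2, had an unadjusted limma p under 0.05, at 0.0409. Nptx1 encodes a neuronal pentraxin that gathers AMPA receptors. Its probe read 228, 221 and 236 in mutant cortex, against 270, 282 and 324 in wild-type cortex. The ranges did not overlap, and the ratio of -0.35 ± 0.11 (SD, n = 3; limma adjusted p = 0.0075) passed under all 14 alternative fits. Nptx1 was dim, and read -0.51 with the negative control level subtracted. Its relative Nptx2 read -0.13 with replicate 3 above 0 (limma adjusted p = 0.183).

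Homer1 makes long scaffold proteins of the postsynaptic density and a short form induced by activity. Of its 3 tested probes, A_51_P387160 passed, with 199, 195 and 233 in mutant cortex, against 229, 241 and 253 in wild-type cortex (-0.21 ± 0.09, SD, n = 3; limma adjusted p = 0.0283). The mutant value of replicate 3 lay above the wild-type value of replicate 1. The other 2 read -0.08 and 0.07 and did not pass, and the form that each detects was not analysed here. The call was lost when replicate 1 or replicate 2 was left out and when their mean was used (limma adjusted p = 0.154, 0.0758 and 0.0958, its alternatives starting at 0.000794), and the ratio was -0.33 with the negative control level subtracted.

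Arc, the product of which moves AMPA receptors into endosomes, was bright and nearly level between the genotypes. It read 6639, 7430 and 6489 in mutant cortex, against 6739, 7921 and 7270 in wild-type cortex (-0.09 ± 0.07, SD, n = 3; limma adjusted p = 0.16). Scg2, a granin of dense-core vesicles, read 0.18 with most of the difference on replicate 3 (limma adjusted p = 0.0937). Both probes of Ptgs2, the inducible cyclooxygenase, were dim and read -0.08 and -0.06 without passing.

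**Figure D4:**
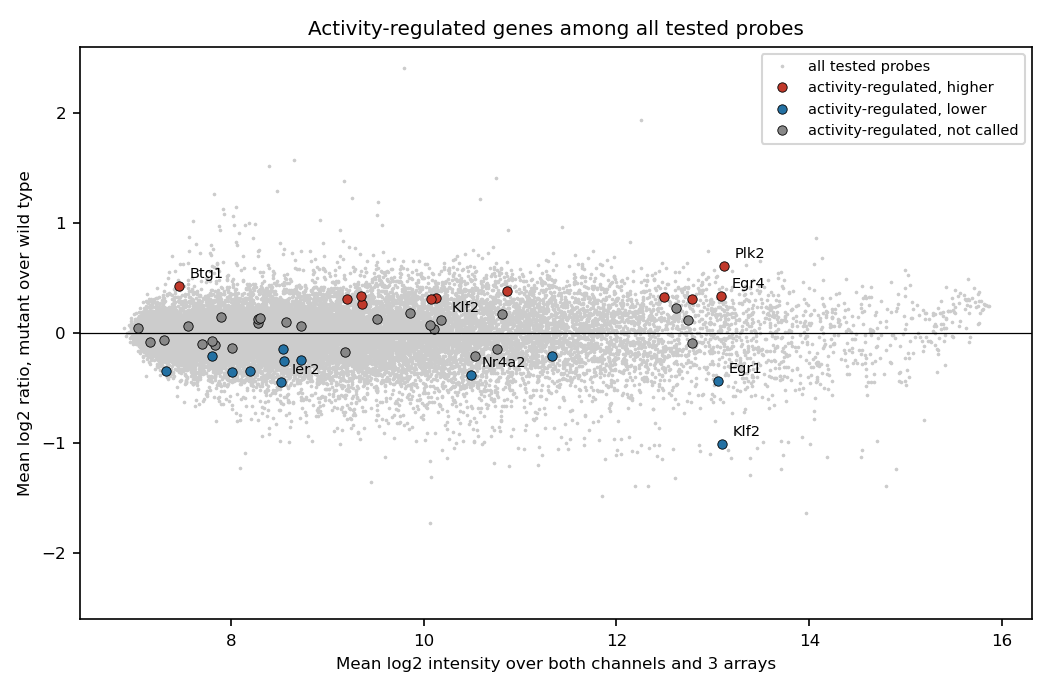
Mean log2 ratio of mutant over wild type (vertical axis) against mean log2 intensity over both channels and 3 arrays (horizontal axis), with all 27530 tested probes in grey and the 49 member probes in colour. Most members lie close to 0, and the bright Klf2 probe at -1.01 lies among other bright probes near that ratio.

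A list of 49 genes that carry synaptic and growth factor signals to these promoters had 40 measured genes, and 5 were higher in the mutant and 18 lower. The background of the same count was 17.1% higher and 23.6% lower, and the median log2 ratio of the 63 tested probes was -0.09. Among the lowest were Camk4, a nuclear calcium-dependent kinase (-0.82 ± 0.05), and Mef2c, a factor that restricts synapse number (-0.64 ± 0.04; SD, n = 3 each). Their limma adjusted p were 0.00197 and 0.00201. A second Camk4 probe read -0.02. Among the highest was the calcineurin subunit gene Ppp3r1 (0.25 ± 0.12, SD, n = 3; limma adjusted p = 0.0246), whose second probe read 0.19. Without replicate 1 the counts were 1 higher and 10 lower, and Ppp3r1 no longer passed (limma adjusted p = 0.0956), nor did it with replicates 1 and 2 averaged (0.0583). The share over all measured genes in the fit without replicate 1 is not given here.

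A further list of 35 activity-regulated genes outside the members had 26 measured, 7 higher in the mutant and 4 lower, with a median probe ratio of -0.02. Those 11 calls among 26 genes stand beside 40.7% called over all measured genes, 17.1% higher and 23.6% lower. The highest were Cebpb, a bZIP factor of inflammation and memory (0.66 ± 0.29; limma adjusted p = 0.00961), Rnd3, a regulator of the actin cytoskeleton (0.44 ± 0.05; 0.00301), whose other probes read 0.10 and 0.15, and the repressor gene Nfil3 (0.31 ± 0.13; 0.0141), whose other probe read -0.26. The lowest were Rgs4, which limits G protein signalling (-0.56 ± 0.21; limma adjusted p = 0.00737), with a second probe at -0.07, the cell cycle regulator gene Sertad1 (-0.22 ± 0.06; 0.0163), with a second probe at -0.16, and the survival gene Mcl1 (-0.17 ± 0.02; 0.0201), with a second probe at 0.11. Without replicate 1 the list had 2 higher and 1 lower, and Cebpb, Sertad1 and Mcl1 missed (limma adjusted p = 0.0511, 0.076 and 0.181). Without replicate 2 it had 5 higher and 2 lower, and Nfil3 and Sertad1 missed (0.0557 and 0.0551). Without replicate 3 it had 8 higher and 7 lower. The shares over all measured genes in these 2-array fits are not given here.

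A dye term was also fitted in limma. The dyes were exchanged on replicate 2 alone, so the term sets that array against the others. It cannot tell a dye effect from any other difference of that array. Whether dye affected the member probes could therefore not be decided from this term.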

How the data were processed

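Cortical RNA of both genotypes was measured on 3 two-colour arrays, which form 1 group of mutant over wild type. Per the deposited readme, the authors background-subtracted and normalized the channel intensities on a linear scale, by a method not given in the sources used here. They deposited intensity columns corrected for the dye swap, and a log2 ratio with repeated spots collapsed. The series also has a score for every spot, deposited by the authors as a signed fold. It equalled the fold of the array files at all 44290 spots, and 0 columns were left unused. Median log2 ratios of Pro25G control spots turned over with the dyes (4.51, -4.54 and 4.58 on replicates 1, 2 and 3). The deposited columns thus follow the sample and not the dye. Which sample is the mutant was taken from the titles and the readme. Gtf2i's own signal played no part in this.

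No further normalization was applied, as planned for values already normalized. Spots of a probe were averaged, and probe accessions were matched without versions to RefSeq genes of GRCm38.p6, for names and promoter windows alone: 21445 of 41174 gene probes (52.1%) were named. Gene spots were reliable, by the authors' flag, in 67.8%, 64.4% and 69.7% on replicates 1, 2 and 3, and the number of arrays limits the precision. Each of 27530 probes was tested against 0 with limma 3.58.1 (lmFit, eBayes) in R 4.3.3, with Benjamini-Hochberg adjustment over all of them and a threshold of 0.05. The fit was tested on simulated data. SD is the spread of the 3 arrays. Python 3.11.15, pandas 2.3.3, matplotlib 3.10.9 and the R package data.table (version 1.17.8) were also used.

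Members, roles, marker genes and both further lists were chosen with earlier results of these data known. Every member is accounted for; members past the threshold are given with every array, and of each further list the 3 highest and 3 lowest ratios past it. Some genes named by it are left unreported here but stay in the counts. A gene was called by its probe with the smallest p. Alternatives covered loess, centring, background, filters on dim probes, array weights, dye, array independence, each replicate left out, and other call rules.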

Additional observations from a re-analysis of the deposited data

How the results depend on the processing

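Of the 23 member probes past the threshold, all 23 kept their call and direction under loess, centred arrays, the authors' deposited log2 ratio, trended and robust eBayes, array weights and without replicate 3. None changed direction in any alternative. Calls were lost for 1 with the negative control level subtracted, 1 with no filter, 2 with dye as a covariate, 6 with replicates 1 and 2 averaged, 5 without replicate 2 and 17 without replicate 1. Array weights gave replicate 1 a weight of 5.84 and raised member probes to 24 higher and 19 lower, member genes to 20 higher, the signal relay list to 10 higher, and the further activity-regulated list to 11 higher and 9 lower. With replicates 1 and 2 averaged, 7 member genes were lower, 2 relay genes higher and 2 genes of the further list lower. Leaving out 1 replicate gave 2 to 13 higher and 4 to 13 lower member probes, 2 to 12 higher and 4 to 12 lower member genes, 1 to 6 higher and 10 to 19 lower relay genes, and 2 to 8 higher and 1 to 7 lower genes of the further list. A B statistic above 0, the authors' rule, left 3 higher and 3 lower member probes and as many genes, 0 and 10 relay genes, and 2 and 0 of the further list. The member genes left were Egr2, Plk2 and Gadd45b, which were higher, and Egr1, Klf2 and Trib1, which were lower. Ier2 and Nptx1, which passed under all 14 alternative fits, had B of -0.09 and -0.24 and missed this rule. The adjusted p threshold with a minimum of 1.5-fold in place of that rule left 1 and 1 member probes and genes, 1 and 2 relay genes, and 1 and 0 of the further list. Apart from 2.01% of probes called with at least a 1.5-fold change, shares over all probes and genes under these settings are not given here. Those counts therefore cannot be set against a background. Uncalled probes that turned sign were Egr3 (-0.0003 with dye as a covariate, -0.0162 to 0.1281 with 1 replicate left out), Klf2 A_51_P144264 (-0.0156 to 0.2095 with 1 left out) and Errfi1 (-0.0077 to 0.0707 with 1 left out). The causes were not tested. Each fit that left 1 replicate out had 2 arrays, and of the 23 calls 6, 18 and 23 were kept without replicates 1, 2 and 3. Scalings shifted the median of all tested probes by less than 0.01. Dim probes near the floor, such as Npas4 and the dim Btg1 probe, had sizes that depended on the background. The test is itself paired, since each array's ratio sets mutant against wild type, and no replicate block could be added to it.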
